A study of Mus musculus with 12 samples.

Results

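The genes described here are the mouse proteasome genes, the Psm genes, which encode the subunits of the protease, its caps and its assembly factors. They were taken by name as gene symbols that begin with Psm, a letter from a to g and a digit, and 50 of the 24346 gene symbols matched. One symbol, Psmc3ip, was dropped because its name is that of an interacting protein, and Psmb11, the thymus-specific beta subunit, was left out because it did not reach 1 FPKM (fragments scaled to transcript length and to the mapped fragments of the library) in at least 3 of the 12 libraries. The 48 genes left are the members, 5 of which (Psmb8, Psmb9, Psmb10, Psme1 and Psme2) belong to the immunoproteasome and 43 of which do not. Psma8, a testis-specific alpha subunit, was just inside the limit with at least 1 FPKM in 6 libraries, and Psme2b was inside it in 8 libraries. Psmb11 was far outside, with its highest value at 0.0527 FPKM, in Control replicate 1.

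The proteasome is the barrel-shaped protease that degrades proteins marked with ubiquitin, and its 20S core has outer rings of alpha subunits and inner rings of beta subunits that carry the active sites. The 19S cap binds, unfolds and feeds in the ubiquitinated protein with its ATPase ring and a lid of non-ATPase subunits. In immune cells the inducible subunits Psmb8, Psmb9 and Psmb10 can take the places of the constitutive subunits Psmb5, Psmb6 and Psmb7, and this immunoproteasome, often with the cap made of Psme1 and Psme2, is known for making peptides for MHC class I presentation.

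RNA was sequenced from wild-type mouse macrophages derived from bone marrow by 7 days of culture with M-CSF, in 3 libraries for each of 4 groups. The Tm_LPS cells received the glycosylation inhibitor tunicamycin, which causes endoplasmic reticulum stress, at 5 ug/ml for 3 h and then the bacterial product lipopolysaccharide at 1 ng/ml for 3 h. The Tm cells received tunicamycin alone, the LPS cells lipopolysaccharide alone, and the Control cells neither; the labels do not give the length of exposure to tunicamycin alone. Nor do they say if a group's 3 libraries are separate mice or culture dishes; the p-values therefore reflect the variation among these libraries, part or all of which may be technical. The labels give no sex, age or strain of the mice.

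Summed FPKM differed between groups, with 601943 to 666042 in Tm_LPS libraries, 561108 to 563002 in Tm, 666197 to 685010 in LPS and 603467 to 638743 in Control. Pearson's r across genes was 0.9726 to 0.9857 within groups. All 9 macrophage markers looked up passed the filter on low values, and none of the T and NK cell, B cell, erythroid or mast cell markers did. Neutrophil markers (5 of 7 past the filter) summed to 17.1 to 31.7 FPKM in Tm_LPS libraries, 14.3 to 25.8 in Tm, 190 to 316 in LPS and 86.7 to 126 in Control, and stromal markers (6 of 7) to 25.9 to 60.1, 29.8 to 50.7, 18.0 to 23.6 and 15.7 to 20 FPKM in the same groups. Dendritic cell markers (2 of 6) summed to 2.18 to 5.27 FPKM in Tm_LPS libraries, 0.359 to 1.7 in Tm, 3.98 to 8.78 in LPS and 0.179 to 0.594 in Control. The part of these differences in the results was not tested, and in such bulk samples fewer cells of a type and less RNA per cell cannot be told apart. Over the members, each library was set against the mean of the other libraries of its group. Control replicate 2 and Tm_LPS replicate 3 lay farthest from it, with mean absolute log2 deviations of 0.184 and 0.166 against 0.102 to 0.159 in the rest.

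The members were among the abundant transcripts of these macrophages. The median of their mean levels was 130 FPKM, against 11.0 FPKM over the 10311 genes past the filter, and 30 of the 48 members averaged at least 100 FPKM. Psmb6, a catalytic subunit of the constitutive core, had the highest mean at 784 FPKM, followed by Psmd8 of the 19S lid at 401 FPKM and Psmb5, another catalytic subunit, at 395 FPKM. The lowest were Psma8 at 0.948 FPKM, Psme2b, a near copy of Psme2, at 1.19 FPKM and Psme4, which encodes the single-chain cap PA200, at 5.56 FPKM. Summed over all members, the level was 8437, 7825 and 8317 FPKM in Tm_LPS libraries and 7498, 7215 and 7156 FPKM in Tm. It was 8440, 8180 and 7741 FPKM in LPS libraries and 7074, 7597 and 7286 FPKM in Control. The libraries that received LPS were all above the libraries that did not. As a share of the library's summed FPKM the split was by tunicamycin instead: the members took 1.27 to 1.3% in Tm_LPS libraries, 1.27 to 1.33% in Tm, 1.16 to 1.24% in LPS and 1.17 to 1.19% in Control.

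Most members moved little between the groups, by figures that were not worked out over all genes and so describe the members alone. In 39 of 48 members the highest group mean was less than 1.5 times the lowest, the median of that ratio was 1.26, and 23 members passed the test in none of the 5 comparisons between groups, although 9 of these passed in at least 1 after quantile normalization, which gives every library the same distribution of values. A gene was called higher or lower at a Benjamini-Hochberg adjusted p under 0.05 in limma's moderated test on log2(FPKM + 1), fitted on all 10311 genes; every log2 fold change below is a difference on that scale.

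LPS against Control called 6 members higher and 0 lower, which is 12.5% and 0% of the members beside 10.5% and 7.86% of all genes (18.4% in either direction). The 6 were Psmd5, Psmd10, Psma6, Psmd14, Psmd7 and Psmc6. After quantile normalization 3 members were called higher (Psmd5, Psmd10 and Psma6) and 0 lower, beside 8.95% and 9.71% of all genes on that scale. The members' median log2 fold change was 0.11, beside 0.00 over all genes, but -0.05, beside -0.07, after quantile normalization.

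Tm against Control called 5 members higher and 8 lower, 10.4% and 16.7% of the members beside 17.9% and 16.6% of all genes (34.5% in either direction), but 19 higher and 4 lower after quantile normalization, beside 16.9% and 16.8% of all genes on that scale. The 5 higher members were Psmd5, Psmd14, Psmc6, Psmd10 and Psmd8, and each was called higher on both scales. The 8 lower members were Psmg4, Psma5, Psme1, Psmd13, Psma2, Psma7, Psmb4 and Psmc1, of which Psmg4, Psma5, Psme1 and Psmd13 were called lower on both scales. Without Control replicate 2 the count called lower was 4. The members' median log2 fold change was 0.01, beside 0.03 over all genes, and 0.17 after quantile normalization, beside -0.01.

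Tm_LPS against LPS called 5 members higher and 5 lower, 10.4% each beside 13.8% and 15.1% of all genes (28.9% in either direction), and 11 higher and 2 lower after quantile normalization, beside 13.1% and 14.2% of all genes on that scale. The counts dropped to 1 higher without LPS replicate 3 or Tm_LPS replicate 3 and to 3 higher without LPS replicate 1, LPS replicate 2 or Tm_LPS replicate 1. They dropped to 1 lower without LPS replicate 2, to 2 lower without Tm_LPS replicate 3 and to 3 lower without LPS replicate 1 or Tm_LPS replicate 2. The higher members were Psmc6, Psmc2, Psmd4, Psmb6 and Psmd14, and the lower ones were Psma5, Psma4, Psmd13, Psme3 and Psma2.

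Tm_LPS against Tm called 6 members higher and 1 lower, 12.5% and 2.08% beside 8.69% and 7% of all genes (15.7% in either direction), but 1 higher and 3 lower after quantile normalization, beside 7.46% and 9.15% of all genes on that scale. The higher members were Psmd10, Psme1, Psma6, Psma2, Psmb5 and Psmb4, of which Psmd10 was called higher on both scales, and the lower member was Psme2b. Without Tm replicate 3 the count called higher was 3, and the count called lower was 0 without any one Tm library or without Tm_LPS replicate 3. Tm_LPS against Control called 13 members higher and 2 lower, 27.1% and 4.17% beside 20.7% and 20.2% of all genes (40.8% in either direction), and 10 higher and 3 lower after quantile normalization, beside 18.3% and 23.2% of all genes on that scale. The 13 were Psmd10, Psmd5, Psmc6, Psmd14, Psma6, Psmc2, Psmd11, Psmd4, Psmb6, Psmb10, Psmd7, Psmd8 and Psmc5, and the lower members were Psme2b and Psmd13. The Psmd13 call was lost without Control replicate 2, Tm_LPS replicate 1 or Tm_LPS replicate 2. These comparisons share samples with those above, so their values are given side by side and their counts are not independent of each other.

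A difference of 2-fold or more was reached by 2 called members, both in Tm_LPS against Control: Psmd10, which was higher, and Psme2b, which was lower. The share of all genes at that size was not worked out. The interaction term, the LPS effect with tunicamycin minus the LPS effect without it, called 0 members positive and 1 negative, Psmd5, beside 1.41% and 1.96% of all genes (3.37% in either direction). Its first part is Tm_LPS against Tm, which may also differ in time with tunicamycin, since that time is not given for Tm. At an unadjusted p under 0.05 the interaction reached 5 members, and the share of all genes at that threshold was not worked out.

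**Figure D1:**
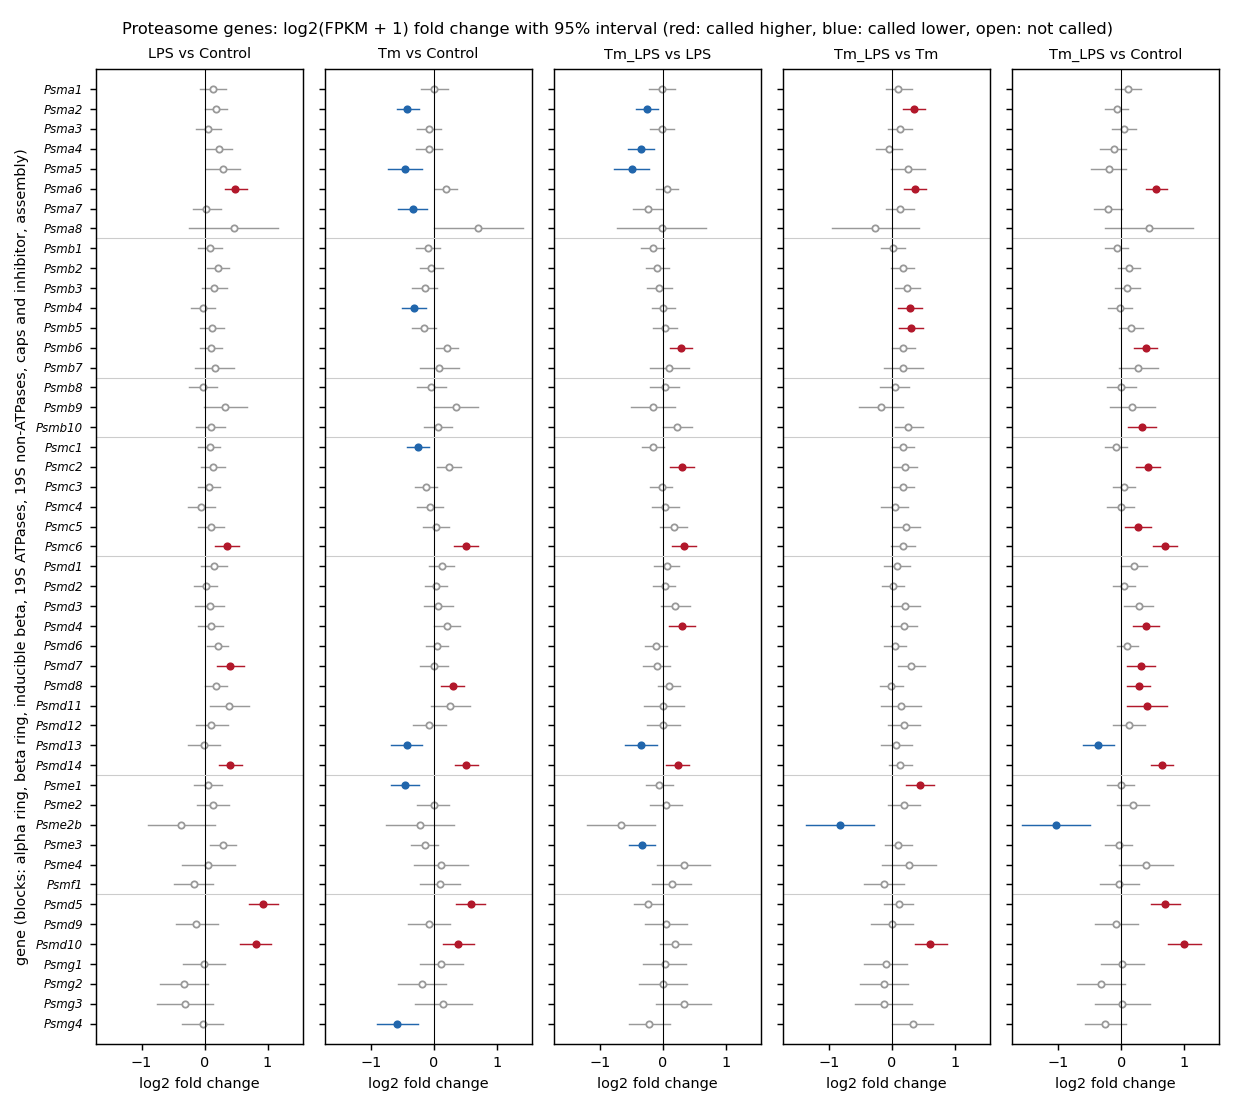
Log2 fold change on log2(FPKM + 1) of the 48 members in the 5 group comparisons, with 95% intervals as lines, members grouped by their place in the complex and calls marked. Most members lie near 0 in every column, and the members farthest above 0 in the LPS comparison are Psmd5 at 0.93 and Psmd10 at 0.81.

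The immunoproteasome genes were expressed in every group and none of the 5 was called between LPS and Control, beside 18.4% of all genes. Psmb8, Psmb9 and Psmb10 are the inducible catalytic beta subunits, and Psme1 and Psme2 form the PA28 cap. In the GENCODE M21 annotation of GRCm38 (mm10), Psmb8 lies at chr17:34197721-34201454 on the plus strand and Psmb9 at chr17:34181987-34187764 on the minus strand, beside Tap1 in the MHC region. Psmb10 lies at chr8:105935735-105938444 on the minus strand, and Psme1 (chr14:55578123-55581529, plus strand) and Psme2 (chr14:55587441-55591113, minus strand) are near neighbours.

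Psmb8 had 211, 226 and 214 FPKM in Tm_LPS libraries and 229, 208 and 197 FPKM in Tm. It had 208, 235 and 197 FPKM in LPS libraries and 214, 252 and 189 FPKM in Control. All 4 groups overlapped. The log2 fold change of Psmb8 between LPS and Control was -0.03 with a 95% interval of -0.25 to 0.20, and it was called in none of the 5 comparisons.

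Psmb10 had 76.2, 64.1 and 75.5 FPKM in Tm_LPS libraries and 57.4, 61.8 and 59.4 FPKM in Tm. It had 64.0, 57.7 and 60.9 FPKM in LPS libraries and 51.3, 61.4 and 58.2 FPKM in Control. Every Tm_LPS library was above every library of the other groups. Psmb10 was called higher in Tm_LPS than in Control (log2 fold change 0.33, SE 0.11, limma adjusted p = 0.0196). That call was lost without Tm_LPS replicate 1 (0.29, adjusted p = 0.0649), without Tm_LPS replicate 3 (0.30, 0.0645), without Control replicate 1 (0.26, 0.0949) and after quantile normalization (0.19, 0.154). Between LPS and Control its log2 fold change was 0.10, with an interval of -0.13 to 0.32.

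Psmb9 was the least abundant of the 5, with 36.3, 33.9 and 26.7 FPKM in Tm_LPS libraries and 37.6, 35.3 and 35.9 FPKM in Tm. It had 33.3, 39.5 and 34.8 FPKM in LPS libraries and 24.5, 38.2 and 23.8 FPKM in Control. One Control library, replicate 2, stood at the level of the treated groups, and the other Control libraries were below every treated library. With all libraries Psmb9 was not called between LPS and Control (log2 fold change 0.33, 95% interval -0.01 to 0.68, limma adjusted p = 0.191) or between Tm and Control (0.35, adjusted p = 0.11). Without Control replicate 2, Psmb9 passed in LPS against Control (0.55, adjusted p = 0.0162), in Tm against Control (0.57, 0.00813) and in Tm_LPS against Control (0.39, 0.0447). The Psmb9 interaction term was -0.51, with limma adjusted p = 0.322. The annotated Psmb9 gene overlaps the start of Tap1, which runs on the opposite strand, and the sources used here do not say whether reads were assigned by strand.

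Psme1 was the immunoproteasome gene called between Tm and Control. It had 120, 109 and 116 FPKM in Tm_LPS libraries and 74.0, 93.0 and 86.1 FPKM in Tm. It had 127, 123 and 110 FPKM in LPS libraries and 111, 122 and 114 FPKM in Control. Every Tm library was below every library of the other 3 groups. Psme1 fell in Tm cells relative to Control (log2 fold change -0.45, SE 0.10, limma adjusted p = 0.00248) and was higher in Tm_LPS than in Tm cells (0.45, SE 0.10, adjusted p = 0.00629). After quantile normalization the call in Tm against Control held (-0.35, adjusted p = 0.00949) and the call in Tm_LPS against Tm did not (adjusted p = 0.0551). Psme1 overlaps Emc9 on the opposite strand in the annotation. Between LPS and Control the log2 fold change of Psme1 was 0.05, with an interval of -0.17 to 0.27.

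Psme2, the partner of Psme1 in the cap, had 393, 267 and 311 FPKM in Tm_LPS libraries and 272, 283 and 285 FPKM in Tm. It had 297, 331 and 298 FPKM in LPS libraries and 258, 320 and 269 FPKM in Control. The groups overlapped, and Psme2 was called in none of the comparisons; in LPS against Control its log2 fold change was 0.13, with an interval of -0.12 to 0.39. In Tm against Control its log2 fold change was -0.00, and after quantile normalization it was 0.33 (limma adjusted p = 0.0176). Psme2 was also called on that scale in Tm_LPS against LPS (0.29, adjusted p = 0.0361). Of the 50-base words in the Psme2 transcript 59.3% also occur in Psme2b, so how reads were divided between these genes is uncertain.

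**Figure D2:**
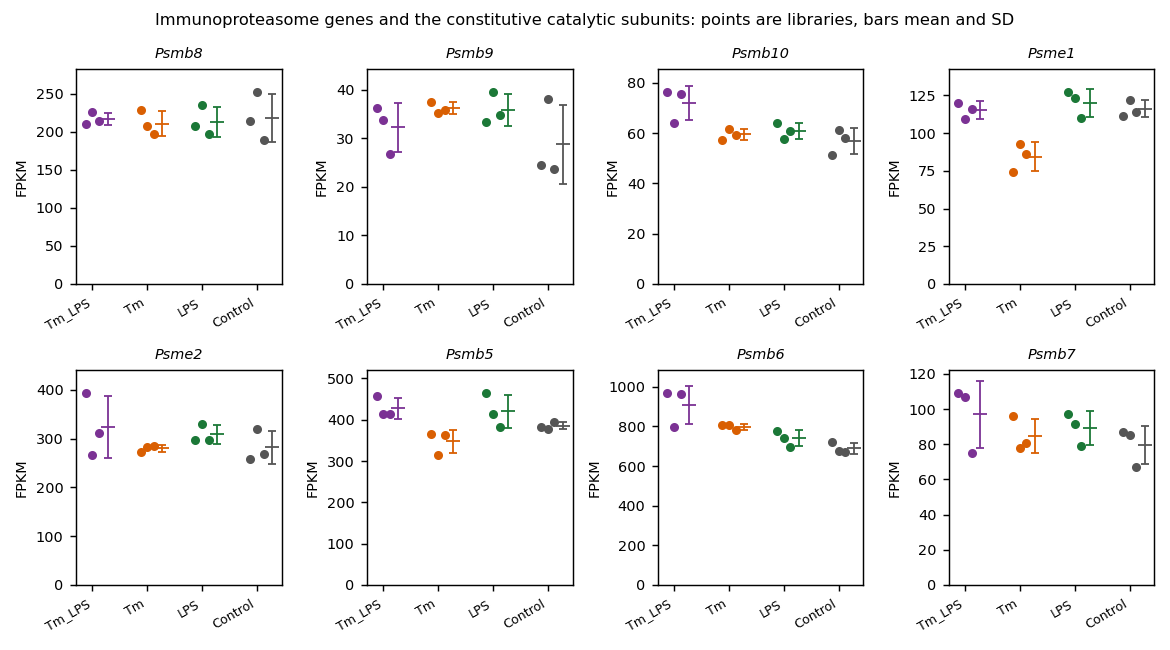
FPKM of Psmb8, Psmb9, Psmb10, Psme1, Psme2 and the constitutive subunits Psmb5, Psmb6 and Psmb7 in each library (points) by group, with group mean and SD (bars, n = 3). The Tm libraries of Psme1 lie at 74.0 to 93.0 FPKM, below all others, and Control replicate 2 of Psmb9 lies at 38.2 FPKM, apart from the other Control libraries.

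Each inducible catalytic subunit was also set against the constitutive subunit whose place it takes, as a ratio of FPKM within a library, which does not depend on how that library was scaled. Psmb8 ran at 0.449 to 0.666 of Psmb5, Psmb9 at 0.0277 to 0.0565 of Psmb6 and Psmb10 at 0.59 to 1.01 of Psmb7 over the 12 libraries. Psmb5 itself had 458, 414 and 414 FPKM in Tm_LPS libraries, 365, 315 and 363 in Tm, 464, 415 and 383 in LPS and 383, 378 and 394 in Control. Of the 50-base words in the Psmb5 transcript 57.1% also occur in other loci of the annotation, so how its reads were assigned is uncertain. Psmb7, which carries the trypsin-like site, had 109, 107 and 75.0 FPKM in Tm_LPS libraries, 95.8, 78.0 and 80.6 in Tm, 97.3, 91.7 and 78.8 in LPS and 86.9, 85.1 and 67.3 in Control. The Psmb7 groups overlapped throughout.

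The ratio of Psmb9 to Psmb6 was 0.0376, 0.0425 and 0.0277 in Tm_LPS libraries and 0.0466, 0.0438 and 0.0460 in Tm. It was 0.0428, 0.0532 and 0.0499 in LPS libraries and 0.0340, 0.0565 and 0.0355 in Control. The Tm_LPS libraries lay below all Tm and all LPS libraries. The difference in the log2 ratio was -0.36 for Tm_LPS against Tm and -0.45 for Tm_LPS against LPS, and with 1 library left out these ran from -0.49 to -0.18 and from -0.59 to -0.28. Without Tm_LPS replicate 3 they were -0.18 and -0.28. Both gave p = 0.1 in the two-sided exact permutation test, the smallest p that 3 libraries against 3 allow, and 0.75 after Benjamini-Hochberg adjustment over the 15 ratio tests. In the remaining ratio tests the groups overlapped. For LPS against Control the log2 ratio differed by -0.15 for Psmb8 over Psmb5, 0.25 for Psmb9 over Psmb6 and -0.07 for Psmb10 over Psmb7.

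**Figure D3:**
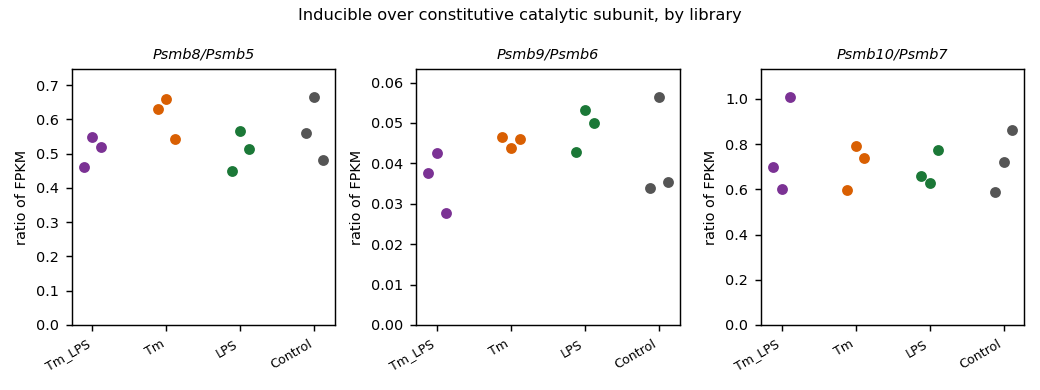
Ratio of FPKM of each inducible catalytic subunit to its constitutive counterpart, by library and group. The Psmb9/Psmb6 ratio of the Tm_LPS libraries lies at 0.0277 to 0.0425, below the Tm and LPS libraries, and the Control libraries lie at 0.0340 to 0.0565.

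Gene starts are shown because Psmd5, Psmd10, Psmc6 and Psmd14 were the 4 members called higher in both single treatments, a choice made after their values were seen. After quantile normalization Psmc6 (0.2, limma adjusted p = 0.156) and Psmd14 (0.23, adjusted p = 0.0697) were not called in LPS against Control. The stretches are RefSeq sequence of GRCm38.p6 before the annotated gene start, read along the gene's strand, without bases that lie in annotated exons. Capitals mark matches on either strand to a CCAAT box (CCAAT, or ATTGG on the other strand) or to the antioxidant response element core TGACNNNGC. The Psmd5 stretch is chr2:34870963-34871107 on the minus strand, inside the longer gene body that GENCODE M21 gives Psmd5, and the Psmd10 stretch is chrX:140956729-140956906 on the minus strand. The Psmc6 stretch is chr14:45329574-45329787 and the Psmd14 stretch chr2:61711444-61711693, both on the plus strand.
Psmd5: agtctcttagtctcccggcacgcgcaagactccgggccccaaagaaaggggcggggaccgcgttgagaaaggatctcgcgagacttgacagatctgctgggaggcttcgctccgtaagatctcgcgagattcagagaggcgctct
Psmd10: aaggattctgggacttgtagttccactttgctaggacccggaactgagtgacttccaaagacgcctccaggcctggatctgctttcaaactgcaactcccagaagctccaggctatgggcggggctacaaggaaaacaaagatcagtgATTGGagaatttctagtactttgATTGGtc
Psmc6: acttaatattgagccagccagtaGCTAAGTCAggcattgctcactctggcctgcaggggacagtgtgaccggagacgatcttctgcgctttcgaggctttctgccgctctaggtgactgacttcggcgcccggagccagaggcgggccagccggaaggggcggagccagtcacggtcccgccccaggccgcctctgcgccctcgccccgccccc
Psmd14: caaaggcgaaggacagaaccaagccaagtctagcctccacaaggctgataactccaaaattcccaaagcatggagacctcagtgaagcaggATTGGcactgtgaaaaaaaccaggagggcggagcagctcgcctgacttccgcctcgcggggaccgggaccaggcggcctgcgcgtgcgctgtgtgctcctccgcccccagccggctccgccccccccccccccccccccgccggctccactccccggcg

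The Psmd10 stretch holds 2 CCAAT boxes, the Psmd14 stretch 1 and the Psmc6 stretch 1 antioxidant response element core (GCTAAGTCA as read along the gene), and none of the motifs searched was in the Psmd5 stretch. RefSeq start windows were matched for 40 of the 48 members. Over the 250 bases before the start, CCAAT was present in 30.2% of the members' 43 windows, beside 33.8% of all 32851 windows. TGACNNNGC was present in 11.6% beside 10.2%, and the interferon-response pair (GAAA, any 2 bases, GAAA) in 6.98% (Psmb3, Psmd4 and Psmd9) beside 2.98%. The interferon-activated site TTCNNNGAA was present in 4.65% (Psmb8 and Psmg1) beside 7.02%, and TGATGNAA, a core of the ATF4 composite element, in 2.33% (Psmd13) beside 3.45%. The NF-kB-type site (GGG, any 2 bases, TTTCC) was in none of these windows beside 1.41%, and the endoplasmic reticulum stress element (CCAAT, any 9 bases, CCACG) in none beside 0.113%. These matches are letters in a window and not measured binding sites.

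Among the 7 assembly chaperones, 2 genes were called higher in LPS against Control (28.6%, beside 10.5% of all genes). Psmd5 and Psmd10 (also called gankyrin), together with Psmd9, hold ATPase subunits of the 19S base while it is put together and are absent from the finished proteasome. Psmd5 lies at chr2:34849734-34874968 on the minus strand of GRCm38 and overlaps Cutal on the other strand. It had 81.9, 82.3 and 83.2 FPKM in Tm_LPS libraries and 80.9, 74.8 and 73.9 FPKM in Tm. It had 98.8, 93.3 and 98.9 FPKM in LPS libraries and 56.8, 42.3 and 53.3 FPKM in Control. LPS alone was the highest group, Control was the lowest, and no groups overlapped. The log2 fold change of Psmd5 was 0.93 in LPS against Control (SE 0.11, limma adjusted p = 6.1e-06) and 0.59 in Tm against Control (SE 0.11, adjusted p = 0.000474). In Tm_LPS against Tm it was 0.11 (adjusted p = 0.564), and the interaction was -0.82 (SE 0.15, adjusted p = 0.00472).

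Psmd10 had 62.9, 54.4 and 70.0 FPKM in Tm_LPS libraries and 40.0, 38.0 and 42.8 FPKM in Tm. It had 51.6, 50.4 and 60.6 FPKM in LPS libraries and 32.2, 28.9 and 30.4 FPKM in Control. Both LPS-treated groups lay above both groups without LPS, with overlap between Tm_LPS and LPS. The log2 fold change of Psmd10 was 0.81 in LPS against Control (SE 0.12, limma adjusted p = 9.05e-05), 0.61 in Tm_LPS against Tm (adjusted p = 0.00169) and 1.00 in Tm_LPS against Control (adjusted p = 4.02e-06). In Tm against Control it was 0.39 (adjusted p = 0.0178), a call lost without Control replicate 2 or without Tm replicate 3. Unlike Psmd5, Psmd10 had no called interaction (-0.19, adjusted p = 0.659); the difference between these genes was not tested.

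Psmg4, which acts with Psmg3 in building the alpha ring, was lower in Tm than in Control. It had 56.9, 41.1 and 54.5 FPKM in Tm_LPS libraries and 37.2, 44.1 and 38.9 FPKM in Tm. It had 70.1, 63.6 and 45.1 FPKM in LPS libraries and 59.6, 62.6 and 58.2 FPKM in Control. Every Tm library was below every Control library, and the other groups spread widely. The log2 fold change of Psmg4 in Tm against Control was -0.58 (SE 0.15, limma adjusted p = 0.00817). Psmg1, Psmg2, Psmg3 and Psmd9 were called in no comparison, with mean levels of 40.2, 38.2, 21.1 and 11.2 FPKM.

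In the alpha ring of the core, which forms the gate, LPS against Control called 1 of 8 members higher, Psma6 (12.5%, beside 10.5% of all genes). Tm against Control called 0 higher and 3 lower (0% and 37.5%, beside 17.9% and 16.6% of all genes). After quantile normalization it called 3 higher and 1 lower, beside 16.9% and 16.8% of all genes on that scale. Psma6 had 412, 415 and 435 FPKM in Tm_LPS libraries, 357, 315 and 310 in Tm, 419, 390 and 397 in LPS and 278, 273 and 304 in Control. The LPS-treated libraries lay above all others. Psma6 was higher by 0.49 on the log2 scale in LPS against Control (SE 0.08, limma adjusted p = 0.0003) and 0.56 in Tm_LPS against Control (adjusted p = 3.87e-05). The Tm libraries of Psma6 were also above its Control libraries (0.20, adjusted p = 0.0735). After quantile normalization Psma6 was called in Tm against Control (0.52, adjusted p = 8.78e-05). Its call in Tm_LPS against Tm (0.36, adjusted p = 0.00567) was lost on that scale (0.07, adjusted p = 0.585).

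Psma5 and Psma2 were lower with tunicamycin. Psma5 had 121, 81.9 and 101 FPKM in Tm_LPS libraries, 85.7, 72.4 and 94.6 in Tm, 153, 133 and 137 in LPS and 112, 112 and 121 in Control. Its log2 fold change was -0.45 in Tm against Control (SE 0.13, limma adjusted p = 0.0128) and -0.49 in Tm_LPS against LPS (SE 0.13, adjusted p = 0.00922). The Tm libraries were below the Control libraries and the Tm_LPS libraries below the LPS libraries. The first call was lost without Tm replicate 2. Psma2 had 333, 299 and 305 FPKM in Tm_LPS libraries, 253, 253 and 231 in Tm, 387, 360 and 365 in LPS and 303, 343 and 340 in Control. The Tm libraries of Psma2 were the lowest, and its log2 fold change in Tm against Control was -0.42 (SE 0.08, adjusted p = 0.00101), a call lost after quantile normalization. Some 54.5% of the 50-base words of the Psma5 transcript occur in other loci of the annotation, pseudogenes among them, and Psma2 overlaps AW209491 on the same strand. Psma1, Psma3 and Psma8 were called in no comparison (Psma1 and Psma3 were called higher in Tm against Control after quantile normalization), Psma4 was called in Tm_LPS against LPS (-0.35, adjusted p = 0.0122; lost without LPS replicate 2 or Tm_LPS replicate 3) and Psma7 in Tm against Control (-0.33, adjusted p = 0.0221).

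In the constitutive beta ring, LPS against Control called 0 of 7 members with limma, beside 18.4% of all genes. At an unadjusted p under 0.05 it reached 1 member, a threshold at which the share of all genes was not worked out. Tm against Control called 0 higher and 1 lower (0% and 14.3%, beside 17.9% and 16.6% of all genes). After quantile normalization it called 4 higher and 0 lower, beside 16.9% and 16.8% of all genes on that scale. Psmb6, which carries the caspase-like site, had 967, 797 and 963 FPKM in Tm_LPS libraries and 807, 806 and 781 FPKM in Tm. It had 777, 743 and 697 FPKM in LPS libraries and 722, 676 and 672 FPKM in Control. The Tm_LPS libraries were all above the LPS and the Control libraries. Psmb6 was higher by 0.29 on the log2 scale in Tm_LPS against LPS (SE 0.09, limma adjusted p = 0.0169) and 0.39 in Tm_LPS against Control (SE 0.09, adjusted p = 0.00152). The first of these was lost without LPS replicate 3, Tm_LPS replicate 1 or Tm_LPS replicate 3. The Tm libraries of Psmb6 were also above its Control libraries. That difference was not called (0.21, adjusted p = 0.0683), but it was called after quantile normalization (0.41, adjusted p = 0.00055).

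Psmb5, which carries the chymotrypsin-like site, was called higher in Tm_LPS than in Tm (log2 fold change 0.30, SE 0.09, limma adjusted p = 0.0308), but after quantile normalization that difference was -0.00 (adjusted p = 0.979), and the call was also lost without Tm replicate 2, Tm replicate 3 or Tm_LPS replicate 1. Psmb4, a non-catalytic subunit, was lower in Tm than in Control (-0.31, SE 0.09, adjusted p = 0.0139) and higher in Tm_LPS than in Tm (0.29, adjusted p = 0.0384), and neither was called after quantile normalization (-0.16, adjusted p = 0.174, and 0.08, adjusted p = 0.603). Psmb4 had 127, 133 and 121 FPKM in Tm_LPS libraries and 106, 104 and 101 FPKM in Tm, with no overlap. The non-catalytic subunits Psmb1, Psmb2 and Psmb3 and the catalytic Psmb7 were called in no comparison, but after quantile normalization Psmb1, Psmb2 and Psmb3 were called higher in Tm against Control.

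Psmc6 was the one ATPase of the 19S base called in LPS against Control (16.7% of the 6, beside 18.4% of all genes). That call was lost after quantile normalization (log2 fold change 0.2, limma adjusted p = 0.156). Tm against Control called 1 of the 6 ATPases higher and 1 lower (16.7% each, beside 17.9% and 16.6% of all genes). After quantile normalization it called 3 higher and 0 lower, beside 16.9% and 16.8% of all genes on that scale. Psmc6 had 100, 94.7 and 98.9 FPKM in Tm_LPS libraries, 86.2, 84.6 and 87.6 in Tm, 76.7, 75.5 and 79.4 in LPS and 59.8, 55.9 and 64.9 in Control. The 4 groups did not overlap and ran in that order from highest to lowest. The log2 fold change of Psmc6 was 0.36 in LPS against Control (SE 0.09, limma adjusted p = 0.0101), 0.51 in Tm against Control (adjusted p = 0.00035) and 0.34 in Tm_LPS against LPS (adjusted p = 0.00992). In Tm_LPS against Control it was 0.69 (adjusted p = 1.15e-05), the largest among the 6 ATPases, and in Tm_LPS against Tm it did not pass (0.18, adjusted p = 0.2).

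Psmc2, another ATPase, had 175, 166 and 189 FPKM in Tm_LPS libraries and 167, 156 and 139 FPKM in Tm. It had 147, 144 and 139 FPKM in LPS libraries and 129, 132 and 130 FPKM in Control, and the Tm_LPS libraries were above both. Psmc2 was higher in Tm_LPS than in Control (log2 fold change 0.43, SE 0.09, limma adjusted p = 0.000975) and than in LPS (0.30, adjusted p = 0.0188). The call against LPS was lost without LPS replicate 3 or Tm_LPS replicate 3. Psmc5 was called in Tm_LPS against Control (0.27, adjusted p = 0.0399) and Psmc1 in Tm against Control (-0.25, adjusted p = 0.0248, but 0.02 after quantile normalization), while Psmc3 and Psmc4 were called in none.

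Of the 11 non-ATPase subunits of the 19S cap, LPS against Control called Psmd14 and Psmd7 higher (18.2%, beside 10.5% of all genes). They form the pair that removes ubiquitin chains from substrates, Psmd14 being the deubiquitinating enzyme and Psmd7 its partner. After quantile normalization 0 of the 11 were called in that comparison, beside 8.95% higher and 9.71% lower over all genes. Tm against Control called 2 of the 11 higher and 1 lower (18.2% and 9.09%, beside 17.9% and 16.6% of all genes). After quantile normalization it called 6 higher and 1 lower, beside 16.9% and 16.8% of all genes on that scale. Psmd14 had 177, 166 and 171 FPKM in Tm_LPS libraries, 160, 158 and 152 in Tm, 140, 150 and 146 in LPS and 108, 101 and 118 in Control. The groups did not overlap, with Tm_LPS highest and Control lowest. Psmd14 had a log2 fold change of 0.41 in LPS against Control (SE 0.09, limma adjusted p = 0.00226), 0.52 in Tm against Control (adjusted p = 0.000198) and 0.65 in Tm_LPS against Control (adjusted p = 1.33e-05). The call of Psmd14 in Tm_LPS against LPS (0.24, adjusted p = 0.0485) was lost in 15 of the alternative settings.

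Psmd7 was called in LPS against Control and in Tm_LPS against Control. It had 144, 129 and 127 FPKM in Tm_LPS libraries, 108, 121 and 95 in Tm, 140, 139 and 149 in LPS and 98.3, 107 and 115 in Control. The LPS-treated libraries lay above all others. Psmd7 had a log2 fold change of 0.41 in LPS against Control (SE 0.10, limma adjusted p = 0.00861) and 0.32 in Tm_LPS against Control (adjusted p = 0.0212), and it was 0.01 in Tm against Control (adjusted p = 0.947). Both calls were lost after quantile normalization (0.24, adjusted p = 0.131, and 0.23, adjusted p = 0.0827).

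Psmd8 and Psmd13, both subunits of the lid, moved in opposite directions in Tm cells. Psmd8 had 466, 379 and 436 FPKM in Tm_LPS libraries, 432, 427 and 431 in Tm, 418, 389 and 383 in LPS and 360, 356 and 335 in Control. Its log2 fold change in Tm against Control was 0.30 (SE 0.08, limma adjusted p = 0.0128), a call lost without Control replicate 3. Psmd13 had 90.3, 87.0 and 115 FPKM in Tm_LPS libraries, 97.5, 90.4 and 88.3 in Tm, 129, 131 and 110 in LPS and 114, 139 and 120 in Control. Its log2 fold change in Tm against Control was -0.43 (SE 0.12, adjusted p = 0.00983), a call lost without Control replicate 2. Psmd13 overlaps Sirt3 on the opposite strand in the annotation.

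Psmd4, a ubiquitin receptor of the cap, was higher in Tm_LPS than in Control (0.40, limma adjusted p = 0.0037) and than in LPS (0.30, adjusted p = 0.0294). The second of these was lost without any one LPS library or without Tm_LPS replicate 3. Psmd11 was called in Tm_LPS against Control alone (0.41, adjusted p = 0.0371), a call lost after quantile normalization (0.27, adjusted p = 0.174). The scaffold subunits Psmd1 and Psmd2, with Psmd3, Psmd6 and Psmd12, were called in no comparison. After quantile normalization Psmd1, Psmd2 (0.35, adjusted p = 0.00427) and Psmd6 were called higher in Tm against Control, and Psmd2 lower in Tm_LPS against Tm (-0.27, adjusted p = 0.0376). Psmd2 had 226, 246 and 225 FPKM in Tm_LPS libraries, 232, 228 and 230 in Tm, 225, 248 and 212 in LPS and 226, 216 and 231 in Control.

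**Figure D4:**
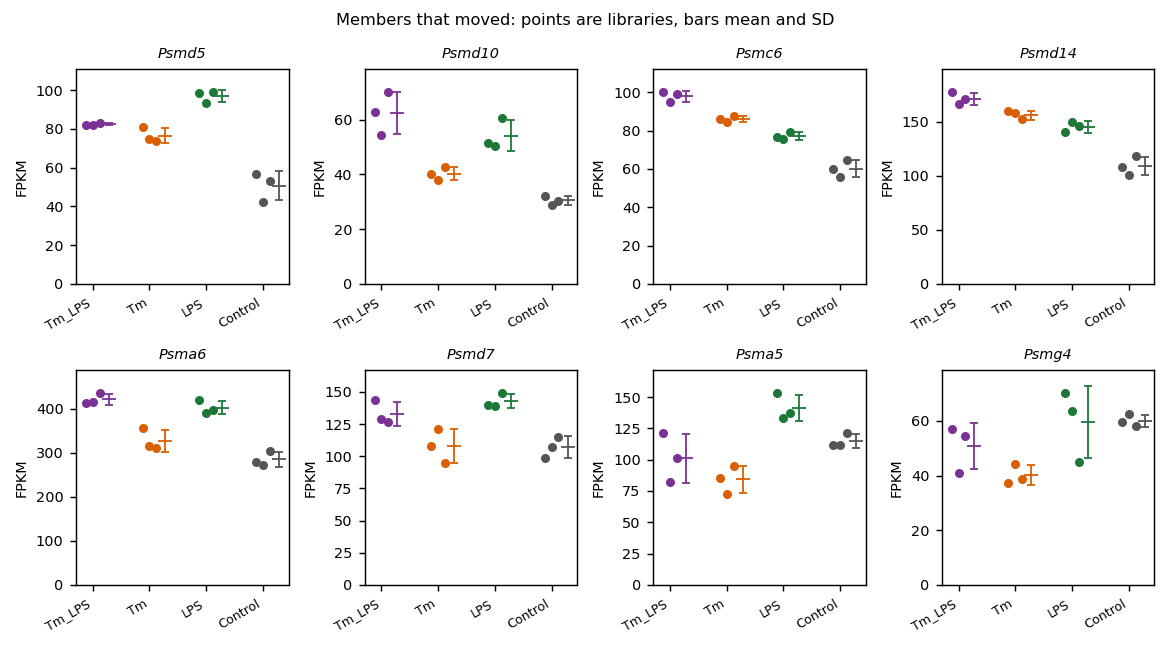
FPKM by library (points) and group mean with SD (bars, n = 3) for 8 called members. Psmd5 and Psmd10 are lowest in Control, Psmc6 and Psmd14 are highest in Tm_LPS and lowest in Control, and the Tm libraries of Psma5 and Psmg4 lie below their Control libraries.

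Among the other caps, Psme3, whose product forms a nuclear cap related to PA28, had 61.2, 57.2 and 54.5 FPKM in Tm_LPS libraries and 53.0, 51.9 and 55.9 FPKM in Tm. It had 67.6, 79.6 and 71.2 FPKM in LPS libraries and 62.0, 56.7 and 59.3 FPKM in Control, and the LPS libraries were the highest. Psme3 was lower in Tm_LPS than in LPS (log2 fold change -0.33, SE 0.10, limma adjusted p = 0.0204), while LPS against Control did not pass (0.29, adjusted p = 0.0568). The call against LPS was lost without LPS replicate 2 or Tm_LPS replicate 3. Psme2b had 0.654, 0.493 and 0 FPKM in Tm_LPS libraries and 2.12, 1.67 and 1.56 FPKM in Control (log2 fold change -1.04, adjusted p = 0.00368), at levels close to the filter. Psme4 and Psmf1, a proteasome inhibitor in vitro, were called in no comparison.

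Genes that act with the proteasome but lie outside the Psm names are grouped here by role. Of 17 such partners, 2 were higher and 3 lower in LPS than in Control (11.8% and 17.6%, beside 10.5% and 7.86% of all genes), and 5 higher and 4 lower in Tm than in Control (29.4% and 23.5%, beside 17.9% and 16.6%). The largest change among them with tunicamycin alone was that of Pomp, the chaperone that the core needs for its maturation. Pomp had 189, 130 and 170 FPKM in Tm_LPS libraries and 140, 145 and 142 FPKM in Tm. It had 309, 303 and 299 FPKM in LPS libraries and 276, 302 and 302 FPKM in Control, so that tunicamycin-treated libraries lay below all others. Pomp fell with tunicamycin alone by 1.04 on the log2 scale, 2.05-fold lower than in Control (SE 0.11, limma adjusted p = 2.4e-06). In Tm_LPS against LPS its log2 fold change was -0.91 (adjusted p = 1.28e-05), and in LPS against Control it was 0.05 (adjusted p = 0.82).

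Adrm1, a ubiquitin receptor of the 19S cap outside the Psm names, had 133, 150 and 154 FPKM in Tm_LPS libraries, 122, 112 and 111 in Tm, 120, 120 and 104 in LPS and 89.6, 101 and 91.2 in Control. Adrm1 was higher in Tm_LPS than in Control by a log2 fold change of 0.63 (SE 0.10, limma adjusted p = 6.61e-05). The proteasome-bound thioredoxin-like protein Txnl1 had a log2 fold change of 0.56 in LPS against Control (adjusted p = 0.000397), 0.42 in Tm against Control (adjusted p = 0.00251) and 0.97 in Tm_LPS against Control (adjusted p = 4.46e-07). Zfand5, a zinc finger protein known as a proteasome activator, rose by a log2 fold change of 1.09 in LPS (adjusted p = 1.57e-06) and 1.00 in Tm (adjusted p = 4.69e-06). Lower in LPS than in Control were Zfand2a (-0.89, adjusted p = 0.000175), Akirin2 (-0.88, 0.0274), which brings proteasomes into the nucleus, and Ube3c (-0.87, 0.00739), a proteasome-bound ubiquitin ligase. The Akirin2 call was lost without either of Control replicates 1 and 3 or LPS replicates 1 and 2.

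Of 12 known regulators of proteasome genes, 4 were higher and 1 lower in LPS than in Control (33.3% and 8.33%, beside 10.5% and 7.86% of all genes), and 5 were higher and 0 lower in Tm than in Control (41.7% and 0%, beside 17.9% and 16.6%). Irf1, a transcription factor known to activate immunoproteasome genes, had 335, 330 and 346 FPKM in Tm_LPS libraries and 45.2, 52.8 and 58.5 FPKM in Tm. It had 279, 370 and 298 FPKM in LPS libraries and 21.8, 16.3 and 23.2 FPKM in Control. Irf1 was 14.8-fold higher in LPS than in Control (log2 fold change 3.89, SE 0.14, limma adjusted p = 1.15e-12). In Tm against Control its log2 fold change was 1.32 (adjusted p = 1.73e-06). None of the 5 immunoproteasome genes was called in LPS against Control, beside 18.4% of all genes. Without Control replicate 2, Psmb9 was called there (0.55, limma adjusted p = 0.0162). A link between Irf1 and these genes was not tested.

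Nfe2l1 encodes the factor that raises proteasome gene transcription when proteasome capacity is short, and Ngly1 encodes the glycanase that takes part in its activation. Nfe2l1 had 177, 174 and 184 FPKM in Tm_LPS libraries and 134, 160 and 156 FPKM in Tm. It had 46.2, 51.2 and 58.3 FPKM in LPS libraries and 33.0, 31.9 and 26.8 FPKM in Control, and the tunicamycin-treated libraries lay above all others. Nfe2l1 was 4.79-fold higher in Tm than in Control (log2 fold change 2.26, SE 0.11, limma adjusted p = 3.12e-10), and in Tm_LPS against LPS its log2 fold change was 1.77 (adjusted p = 1.09e-08). Ngly1 was higher in Tm than in Control (1.20, SE 0.18, adjusted p = 0.000101) and in Tm_LPS than in LPS (1.25, adjusted p = 8.77e-05). Nfe2l2, the related oxidative stress factor, was higher in LPS than in Control (1.42, adjusted p = 3.29e-08) and lower in Tm_LPS than in LPS (-0.84, adjusted p = 2.43e-05).

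**Figure D5:**
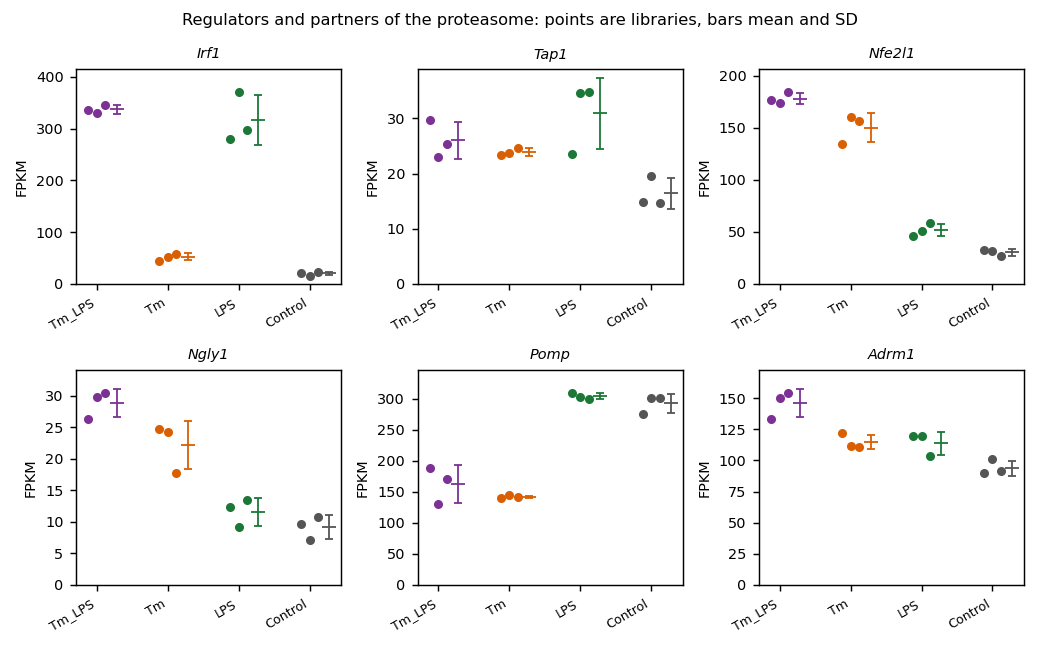
FPKM by library (points) and group mean with SD (bars, n = 3) for Irf1, Tap1, Nfe2l1, Ngly1, Pomp and Adrm1. Irf1 is highest in both LPS-treated groups (279 to 370 FPKM), Nfe2l1 is highest and Pomp lowest in both tunicamycin-treated groups.

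Of 16 class I antigen processing genes, 1 was higher and 0 lower in LPS than in Control (6.25% and 0%, beside 10.5% and 7.86% of all genes). In Tm against Control 5 were higher and 0 lower (31.2% and 0%, beside 17.9% and 16.6%). After quantile normalization 8 were higher and 0 lower in that comparison, beside 16.9% and 16.8% of all genes. Tap1, a subunit of the peptide transporter and the neighbour of Psmb9, had 29.7, 23 and 25.4 FPKM in Tm_LPS libraries and 23.3, 23.7 and 24.6 FPKM in Tm. It had 23.5, 34.5 and 34.7 FPKM in LPS libraries and 14.8, 19.6 and 14.7 FPKM in Control, and every treated library was above every Control library. Tap1 had a log2 fold change of 0.87 in LPS against Control (SE 0.16, limma adjusted p = 0.00105) and 0.53 in Tm against Control (adjusted p = 0.0201). The call in Tm was lost without either of Control replicates 1 and 3 or Tm replicates 2 and 3. Tapbpl, a peptide editor of class I molecules, was higher in Tm than in Control (1.28, adjusted p = 8.6e-05). Tap2, the other subunit of the transporter, had a log2 fold change of 0.07 in LPS against Control (adjusted p = 0.821).

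Genes of endoplasmic reticulum-associated degradation, which sends misfolded proteins to the proteasome, were read beside the members. Of 23 such genes, Tm against Control called 15 higher and 1 lower (65.2% and 4.35%, beside 17.9% and 16.6% of all genes) and LPS against Control 3 higher and 1 lower (13% and 4.35%, beside 10.5% and 7.86%). After quantile normalization these counts were 15 and 0 in Tm against Control, beside 16.9% and 16.8% of all genes. In LPS against Control they were 2 and 2 on that scale, beside 8.95% and 9.71%. Herpud1, a membrane component of the pathway, had a log2 fold change of 5.80 in Tm against Control (adjusted p = 1.24e-14), and Syvn1, its ubiquitin ligase, one of 2.34 (adjusted p = 6.65e-09). Set beside these, the median log2 fold change in Tm against Control was 0.40 over the 23 degradation genes and 0.01 over the 48 proteasome members. After quantile normalization the members' median was 0.17, beside -0.01 over all genes, with 19 members called higher and 4 lower. The median of the degradation genes was not worked out on that scale.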

How the data were processed

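RNA-seq of 12 libraries in 4 groups was analysed from the deposited table, which holds FPKM made by the authors. The submitters' processing notes name Cufflinks 2.2.1, SAMtools 0.1.19, TopHat2 2.0.13 and Bowtie2 2.2.3 and the build mm10. Which annotation was counted, how strand was handled and if libraries were scaled to each other are points the notes do not give. Read depth is unknown: of genes under 0.3 FPKM, 7.07 to 19% stood at the commonest ratio between Control replicate 1 and another library (within 0.02 on the log2 scale), so reads could not be recovered, and precision is the spread between libraries. Median-of-ratios factors were 1.013 to 1.019.

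Genes with at least 1 FPKM in at least 3 libraries (10311 of 24346) were fitted as log2(FPKM + 1) with limma 3.58.1 (lmFit and eBayes with trend; R 4.3.3). Each of the 4 groups had its own mean, all 12 libraries shared the variance estimate, and p-values were adjusted over all genes by Benjamini-Hochberg. The pseudocount makes fold changes of low genes smaller. On simulated libraries with 200 altered genes the code was checked first. Ratios of subunits were compared by exact permutation with SciPy 1.17.1. No 2 libraries were identical. Coordinates came from GENCODE M21, which named all 48 members, and gene start sequence from RefSeq. Genes were named by a rule: the immunoproteasome genes and their constitutive counterparts, and per comparison up to 5 members called in each direction and up to 4 called genes of each list; other members were added to account for each one. Psme2b was placed with the caps afterwards. The members and lists were chosen with earlier results of these data known. The result of 1 other list is not reported here. Alternatives were another scaling, quantile normalization, filters, pseudocount, variance model, sample set, a replicate block and leaving out libraries.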

Additional observations from a re-analysis of the deposited data

Results flagged for a closer look

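For 6 of the genes described, the LPS effect measured with tunicamycin differed from the LPS effect measured without it, by limma's interaction term with an adjusted p under 0.05 over all genes. The length of exposure of the Tm cells is not given, so Tm_LPS against Tm may also differ in time with tunicamycin. Among the members this was Psmd5, with a difference of -0.82 on the log2 scale (adjusted p = 0.00472). Its LPS effect was 0.11 with tunicamycin (Tm_LPS against Tm) and 0.93 without it (LPS against Control), and the difference was called under every alternative tried. Among the regulators, the difference was -1.21 for Irf1 (adjusted p = 0.00115) and -0.88 for Nfe2l2 (adjusted p = 0.00255), and it was -1.55 for Herpud1 (adjusted p = 5.33e-05). For Zfand5 it was -0.61 (adjusted p = 0.0451) and for Ube3c it was 1.16 (adjusted p = 0.0407). The Zfand5 term was lost in 13 alternatives and the Ube3c term in 12, most of them with 1 library left out.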

How the results depend on the processing

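Of 41 called values of named members, 19 stayed called under every alternative, as did 60 of 82 of the other named genes. Counts of members below are in the order higher, then lower. Median-of-ratios scaling, no filter and a pseudocount of 0.1 left every count of called members within 1.5 times its value. The median-of-ratios factors were nearly equal (1.013 to 1.019), so that scaling could hardly change a count and is no check on scaling. Quantile normalization gave 3 and 0 in LPS against Control, 19 and 4 in Tm against Control, 11 and 2 in Tm_LPS against LPS, and 1 and 3 in Tm_LPS against Tm; the share of called genes that were higher moved to 48% from 57.2% over all genes in LPS against Control and to 44.9% from 55.4% in Tm_LPS against Tm. Under quantile normalization 73 of the members' 240 values (48 members in 5 comparisons) changed sign, 64 of them called on neither scale. Called before it were Psmb5 in Tm_LPS against Tm (0.30, then -0.00) and Psmc1 in Tm against Control (-0.25, then 0.02). Called after it were Psma3 (0.25), Psmb1 (0.21), Psmb2 (0.30), Psmb3 (0.20) and Psme2 (0.33) in Tm against Control, Psma3 in Tm_LPS against LPS (0.23) and Psmd2 in Tm_LPS against Tm (-0.27). Without the trend in eBayes, 5 were lower in Tm, 1 and 3 were called in Tm_LPS against LPS, 3 were higher in Tm_LPS against Tm and 1 was lower in Tm_LPS against Control. With the samples of 1 comparison alone, Tm_LPS against LPS gave 1 and 2, and lower counts were 0 in Tm_LPS against Tm and 1 in Tm_LPS against Control. A filter of 5 FPKM (46 members) gave the same 0 and 1 lower. Without Control replicate 2 and Tm_LPS replicate 3 together, an alternative chosen after seeing the data, 5 were lower in Tm, 1 and 3 were called in Tm_LPS against LPS and 0 were lower in Tm_LPS against Tm. The cause of these changes was not tested. Read depth, which is unknown, limits Psma8 and Psme2b most.

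With 1 library left out, counts ran from 6 to 7 and 0 to 0 in LPS against Control, 4 to 7 and 4 to 8 in Tm against Control, 1 to 5 and 1 to 5 in Tm_LPS against LPS, 3 to 8 and 0 to 1 in Tm_LPS against Tm, and 9 to 14 and 1 to 2 in Tm_LPS against Control. Differences in log2 Psmb8/Psmb5 ran from -0.01 to 0.23 in Tm against Control and from -0.09 to 0.08 in Tm_LPS against LPS, and those in log2 Psmb9/Psmb6 from -0.34 to 0.03 in Tm_LPS against Control. Those in log2 Psmb10/Psmb7 ran from -0.21 to 0.07 in LPS against Control, -0.16 to 0.11 in Tm against Control, -0.08 to 0.29 in Tm_LPS against LPS, -0.12 to 0.25 in Tm_LPS against Tm and -0.15 to 0.23 in Tm_LPS against Control.

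Deviations of same-numbered libraries from their group means correlated at -0.039 to 0.095 over 18 pairs, so the numbers were not taken to pair the samples. With a replicate block, counts were 7 and 0 in LPS against Control, 5 and 8 in Tm against Control, 4 and 5 in Tm_LPS against LPS, 6 and 1 in Tm_LPS against Tm, 14 and 2 in Tm_LPS against Control, and 0 and 1 for the interaction.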
